A study of Rattus norvegicus with 3 samples.

Results

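Transcripts of 42 genes that mark microglia and macrophages were followed in cultures of rat commissural neurons. The genes were chosen by name as myeloid markers, and all 42 were found by symbol among the 26353 entries of the deposited table. The study sequenced polyadenylated RNA of commissural neurons isolated from the spinal cord of rat embryos at embryonic day 13 and kept for 2 days in culture. It holds 1 group of 3 libraries, called libraries 1, 2 and 3 by the replicate numbers in the labels, with no treatment, genetic change or control group. The labels give neither strain nor sex and do not say whether the libraries came from separate cultures or litters, so the spread between them may be technical. Levels were deposited as FPKM, fragment numbers divided by transcript length and by the mapped fragments of the library, so levels of different genes can be compared per length.

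Microglia are the resident macrophages of the central nervous system. They descend from yolk sac progenitors that enter the embryonic neural tissue from outside, so they share no lineage with the neurons and glia around them. Their survival depends on the receptor Csf1r and its ligands, their identity on the transcription factor Spi1 (PU.1), and they are known for clearing dying cells and for making the complement protein C1q. Macrophages of the meninges and blood vessels share most of these genes, so the genes followed here do not separate both kinds of cell. RNA was taken from whole cultures, in which fewer cells of a type and less RNA per cell cannot be told apart.

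The label of the samples, commissural neurons, was compared with the data first. All 10 pan-neuronal genes lay above 1 FPKM, against 63.7% of all entries tested. Their summed level was 2447, 2637 and 2380 FPKM in libraries 1, 2 and 3. The 42 myeloid genes together had 56.2, 106 and 88.5 FPKM. The neuronal sum was far above the myeloid sum in each library, and library 1 held the least myeloid RNA. Genes of radial glia and progenitors were also abundant. The 7 genes of that list together had 949.5, 1206 and 980.5 FPKM in libraries 1, 2 and 3. Pearson's r of log2 values over 8069 described genes with a mean of at least 5 FPKM was 0.987 to 0.994 between libraries, across genes, which are not independent replicates. Library 2 stood apart in genes with very long transcripts: 22 of 22 such genes were lowest there, against 22.8% of all entries above 0. Their median difference from the other libraries was -0.91 on the log2(FPKM + 0.1) scale. Ribosomal protein genes were highest in library 2 in 71 of 71 cases, against 51.5% of all entries above 0, with a median difference of 0.33. Both lists were chosen after values were seen. Libraries 1 and 3 lay close together in both lists, with medians of 0.50 and 0.43 for the long transcripts and -0.17 and -0.17 for the ribosomal proteins.

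The myeloid genes covered a wide range of levels. The highest were Coro1a at 14.2 ± 2.87 FPKM (SD, n = 3), Lyz2 at 10.8 ± 4.53, Fcer1g at 9.71 ± 4.04, Aif1 at 6.76 ± 1.47 and Tyrobp at 5.79 ± 1.76 FPKM. A further 12 genes had means from 1 to under 5 FPKM, 20 from 0.1 to under 1, and 4 from above 0 to under 0.1 FPKM. Cd163 was listed at 0 in each library. Whether a 0 in the table stands for no reads or for a failed estimate is not given in the sources used here, and some entries are at 0 in 1 library only, such as Gng4 with 3.21, 0 and 1.67 FPKM. A gene is therefore called listed at 0, which does not show that it was low. In limma's one-sided test with Benjamini-Hochberg adjustment over all 17611 entries above 0 in at least 1 library, 14 of the 42 lay above 1 FPKM, against 63.7% of all entries tested. The share of the myeloid genes is thus below that of the table as a whole. Of the 42, 37 were above 0 in every library, against 57.9% of all entries of the table, and 4 were listed at 0 in 1 or 2 libraries. The 14 called genes were Coro1a, Lyz2, Fcer1g, Aif1, Tyrobp, Plek, Ncf1, Arhgdib, Lcp1, Laptm5, Gpnmb, Spi1, Csf1r and Lyn.

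**Figure D1:**
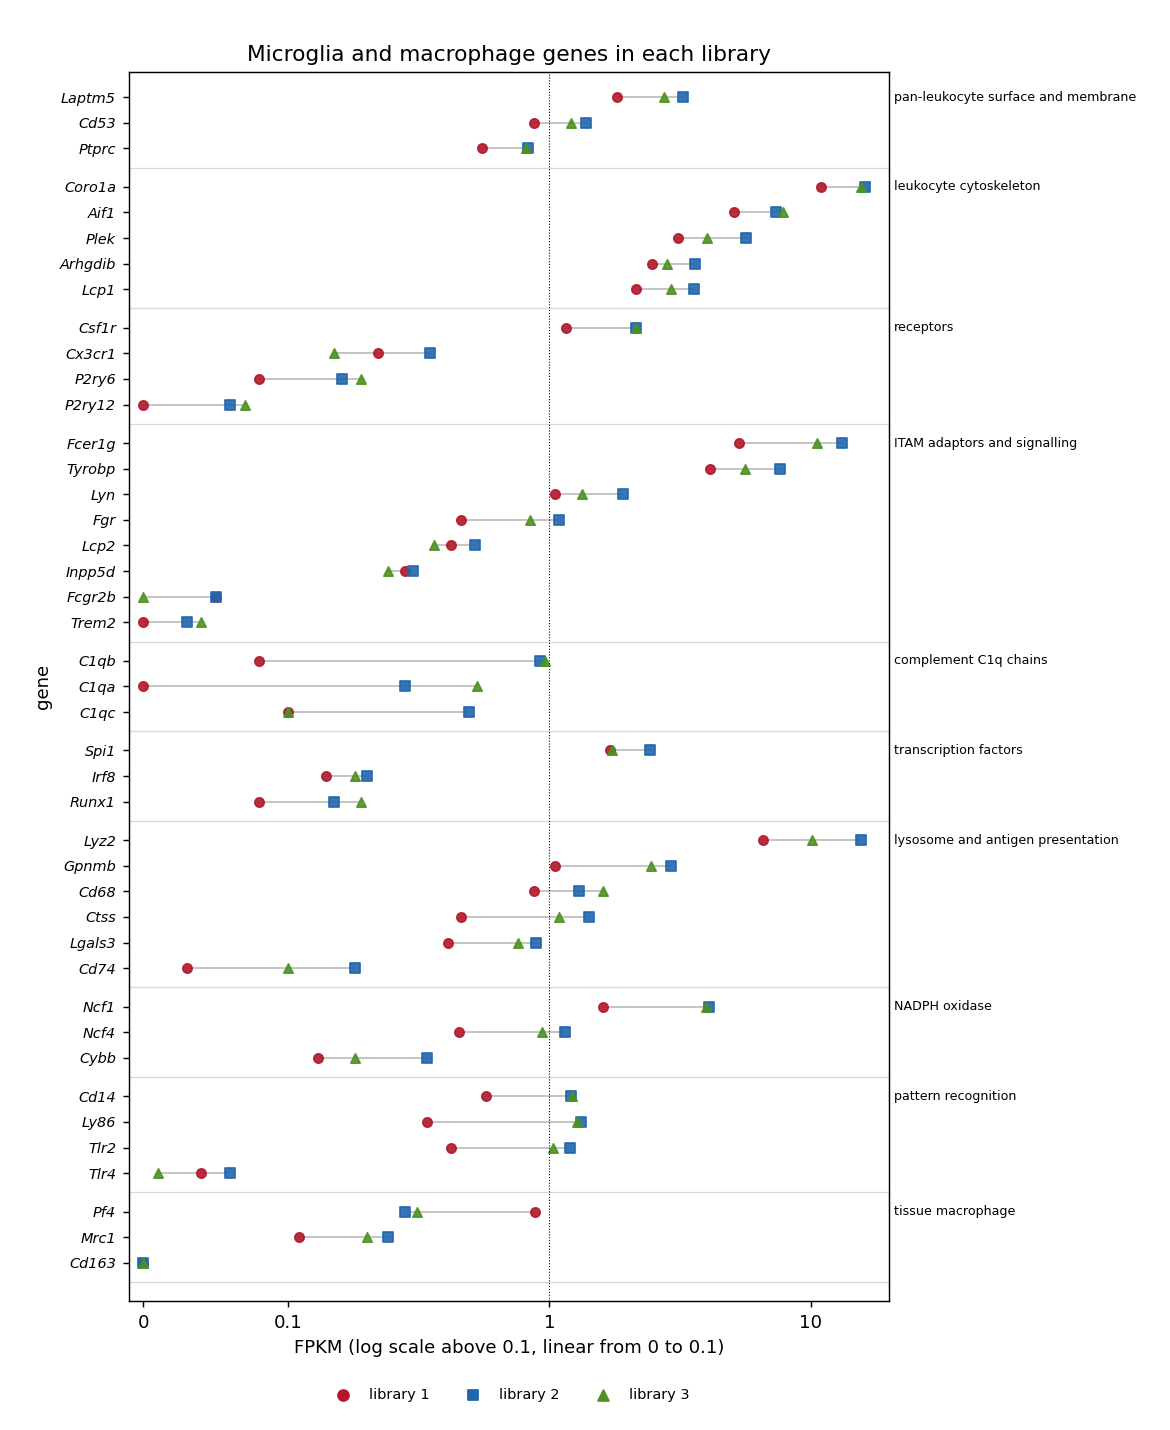
FPKM of the 42 microglia and macrophage genes (vertical axis, by role) in libraries 1 (circles), 2 (squares) and 3 (triangles), on an axis that is logarithmic above 0.1 FPKM and linear below, with grey lines from the lowest to the highest value and a dotted line at 1 FPKM. The circle of library 1 lies left of both other symbols for 34 genes, and Pf4 is the gene whose circle lies to the right of both.

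The second pattern was a shared order of the libraries. Of the 41 genes above 0 in at least 1 library, 34 were lowest in library 1, against 36.9% of all entries above 0 and 36.1% of the 11119 entries whose means lay in the same range (0.0233 to 14.2 FPKM). Among the 25 genes with a mean of at least 0.5 FPKM, all 25 were lowest in library 1, against 40.8% of entries from 0.5 to 14.2 FPKM. Pf4, which did not follow, had a mean of 0.49 FPKM, just under that limit. Each library is 1 sample, so these counts describe the 3 libraries and were not tested.

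The size of the difference was also unlike that of most entries. The median over the 41 genes of library 1 minus the mean of libraries 2 and 3 was -0.61 on the log2(FPKM + 0.1) scale, beside -0.07 for all entries tested. At least 1.5-fold lower values in library 1 were found in 24 of 41 genes, against 5.29% of all entries and 7.99% of those in the same range of means. From a mean of 0.5 FPKM upwards it was 17 of 25 genes against 3.96%. A 1.5-fold higher value in library 1 was found in 1 gene, against 4.36% of all entries. The spread over libraries was correspondingly wide. The median SD of log2 values was 0.42 for the 41 genes, 0.2 for entries in the same range of means and 0.16 for all entries.

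**Figure D2:**
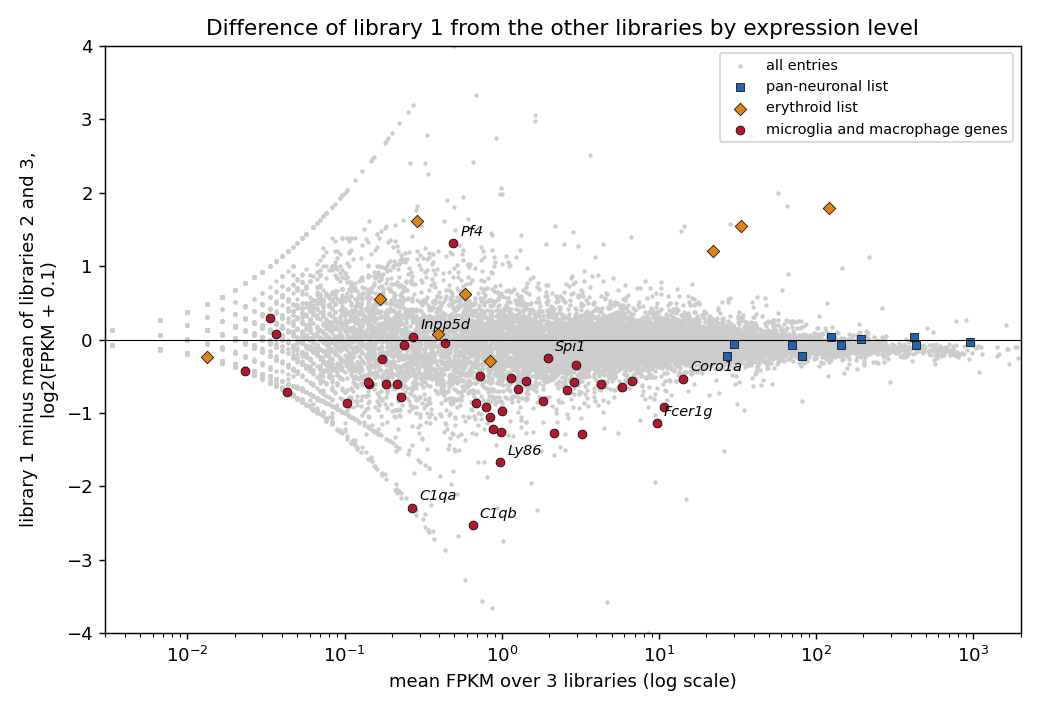
Difference of library 1 from the mean of libraries 2 and 3 in log2(FPKM + 0.1) against mean FPKM (log axis) for all entries within the axes (grey), the myeloid genes (circles), 10 pan-neuronal genes (squares) and 9 erythroid genes (diamonds). The myeloid genes lie mostly below 0, with a median of -0.61, the pan-neuronal genes close to 0 (median -0.06) and the erythroid genes mostly above 0 (median 0.62).

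Libraries 2 and 3 differed less from each other. Their summed myeloid levels were 1.89 and 1.58 times that of library 1, and library 2 exceeded library 3 by 1.20 times. The order 1, 3, 2 from lowest to highest was found in 24 of 41 genes (58.5%), against 21.8% of entries in the same range, and the order 1, 2, 3 in 10 genes (24.4%), against 13.4%. Library 2 was the highest for 29 genes, against 51.5% of all entries and 43% of those in the same range. Library 2 also stood apart in long transcripts and ribosomal protein genes, so libraries 1 and 3 were compared alone as well. They lay close together in those lists but not in every list. The erythroid list summed to 302 FPKM in library 1 and 54.1 FPKM in library 3. Whether technical differences had a part in the order of the libraries was not tested. Library 1 was the lower of the pair in 34 of 41 genes, against 51.2% of all entries, and in 25 of 25 genes with a mean of at least 0.5 FPKM, against 55.7% of entries from there to 14.2 FPKM.

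**Figure D3:**
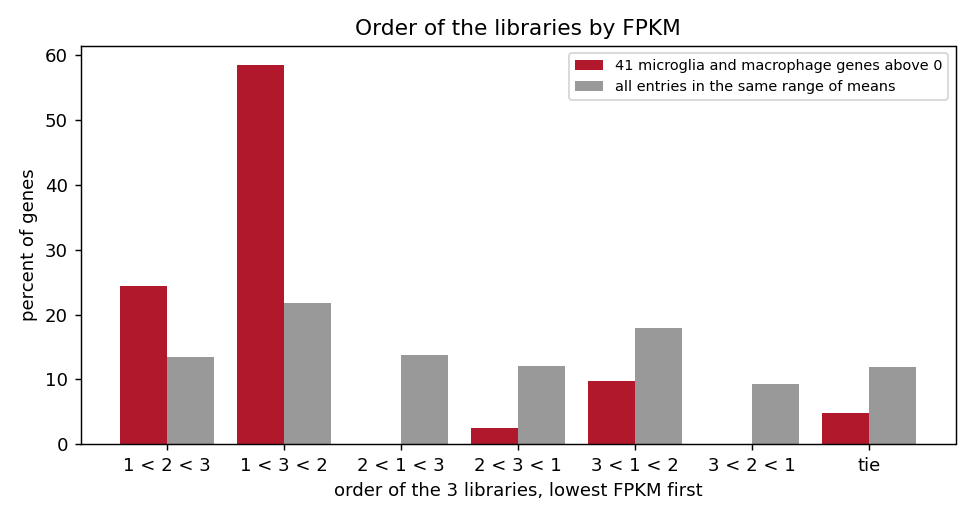
Percent of genes (bars, from 0) with each order of the 3 libraries by FPKM, lowest first, for the 41 myeloid genes above 0 and for all 11119 entries in the same range of means; ties are pairs of equal values. The orders that start with library 1 hold 58.5% and 24.4% of the myeloid genes, and 21.8% and 13.4% of the entries.

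Promoters are shown because 34 of 41 genes were lowest in the same library, and Spi1, one of them, is known to bind a purine-rich site, GAGGAAGT, in myeloid promoters. RefSeq promoters of assembly GRCr8 were matched for 25 of the 42 genes, and the 250 bases before each start were searched on both strands. GAGGAAGT was in 2 of the 25 (8%), against 2.04% of all 33469 promoters, and the shorter AGGAAGT, contained in it, in 7 of 25 (28%), against 7.08%. The 7 were C1qb, Cd53, Ctss, Lyz2, Mrc1, Ptprc and Tlr4, of which Tlr4 was not lowest in library 1. A match describes these letters and is neither a measured site nor a cause. Both promoters with the longer motif follow, on the strand of the gene and ending at the base before its start, with the match in capitals as its reverse complement ACTTCCTC. For Ctss (chr2:185775146-185775395, plus strand, GRCr8) the match begins 17 bases before the start, and for Cd53 (chr2:197087897-197088146, minus strand, GRCr8) 46 bases before it.
Ctss: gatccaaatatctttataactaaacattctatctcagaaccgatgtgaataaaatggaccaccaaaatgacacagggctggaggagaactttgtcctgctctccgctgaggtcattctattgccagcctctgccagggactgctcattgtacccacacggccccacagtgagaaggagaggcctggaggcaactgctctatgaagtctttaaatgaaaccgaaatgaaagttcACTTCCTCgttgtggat
Cd53: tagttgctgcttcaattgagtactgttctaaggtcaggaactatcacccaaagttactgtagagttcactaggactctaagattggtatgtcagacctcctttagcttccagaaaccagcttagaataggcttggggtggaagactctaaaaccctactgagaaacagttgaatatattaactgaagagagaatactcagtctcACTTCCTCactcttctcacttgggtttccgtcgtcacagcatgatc

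By role, genes found in all leukocytes come first. Ptprc (CD45), a phosphatase that marks leukocytes, had 0.55, 0.83 and 0.81 FPKM in libraries 1, 2 and 3. The tetraspanin Cd53 had 0.87, 1.38 and 1.21 FPKM. Laptm5, a lysosomal membrane protein of blood cells, had 1.82, 3.25 and 2.74 FPKM. In each of these 3 genes library 1 was lowest and library 2 highest, with 1.51 to 1.79 times the level of library 1. Of the 3, Laptm5 passed the test against 1 FPKM (limma, Benjamini-Hochberg adjusted p = 6.27e-05), and Cd53 at 1.15 ± 0.260 FPKM did not (limma, adjusted p = 0.25).

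The cytoskeletal proteins of leukocytes were the group with the highest levels, and 5 of 5 lay above 1 FPKM, against 63.7% of all entries tested. Coro1a (ENSRNOG00000019430), an actin-binding coronin, had 10.93, 16.13 and 15.63 FPKM. It is also known from neurons, so its level is not a measure of myeloid cells alone. Aif1 (ENSRNOG00000000853), the antigen IBA1 by which microglia are usually stained, had 5.08, 7.38 and 7.82 FPKM. Plek, a substrate of protein kinase C, had 3.11, 5.66 and 4.02 FPKM. Libraries 2 and 3 lay above library 1 in all of them. Arhgdib, an inhibitor of small GTPases, had 2.48, 3.62 and 2.81 FPKM, and Lcp1 (L-plastin), an actin bundler, 2.14, 3.59 and 2.92 FPKM. For Arhgdib, library 3 exceeded library 1 by only 1.13 times.

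Receptors that define microglia were uneven. Csf1r, on which microglia depend, had 1.16, 2.14 and 2.15 FPKM and lay above 1 FPKM (limma, Benjamini-Hochberg adjusted p = 0.00346). Without library 2 it no longer passed (limma, adjusted p = 0.0842). Cx3cr1, the receptor for the neuronal chemokine fractalkine, had 0.22, 0.35 and 0.15 FPKM, with library 3 lowest. P2ry6, a receptor for UDP that acts in engulfment, had 0.08, 0.16 and 0.19 FPKM. P2ry12, an ADP receptor typical of microglia in the mature brain, was listed at 0, 0.06 and 0.07 FPKM. Csf1r therefore stood well above the other 3, and exceeded Cx3cr1 by 5.27, 6.11 and 14.3 times in the 3 libraries.

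The next group is the signalling chain of activating receptors. Fcer1g and Tyrobp (DAP12) are small adaptors whose ITAM tyrosines recruit the kinase Syk. Fcer1g (ENSRNOG00000024159) had 5.30, 13.23 and 10.59 FPKM, and Tyrobp (ENSRNOG00000020845) 4.13, 7.64 and 5.59 FPKM. Fcer1g was the higher in 3 of 3 libraries, with a log2 ratio of Tyrobp to Fcer1g of -0.68 ± 0.29, larger than its spread. With 3 libraries an exact sign-flip test of such a ratio cannot go below p = 0.25, so ratios are given without a test. Trem2, a receptor that signals through Tyrobp, was listed at 0, 0.03 and 0.04 FPKM, 255 and 140 times below Tyrobp in libraries 2 and 3. Fcgr2b, the inhibitory Fc receptor, was listed at 0.05, 0.05 and 0 FPKM, and close relatives could share its reads.

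Downstream of these receptors, the Src family kinase Lyn had 1.05, 1.91 and 1.33 FPKM and lay above 1 FPKM (limma, Benjamini-Hochberg adjusted p = 0.0266), but not without library 2 (limma, adjusted p = 0.159). Fgr, a kinase of the same family restricted mainly to myeloid cells, had 0.46, 1.09 and 0.84 FPKM. Lyn exceeded Fgr in 3 of 3 libraries, by 1.58 to 2.28 times, and library 1 was lowest for both kinases. Lcp2 (SLP-76), a scaffold, had 0.42, 0.52 and 0.36 FPKM, and Inpp5d (SHIP1), an inositol phosphatase, 0.28, 0.30 and 0.24 FPKM. For Lcp2 and Inpp5d the lowest library was library 3, and the difference of library 1 from the other libraries was -0.04 and 0.04 on the log2(FPKM + 0.1) scale.

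Complement C1q showed the widest differences between libraries. Its 3 chains, which assemble into the recognition part of the classical pathway, are made in the brain mainly by microglia. C1qa was listed at 0, 0.28 and 0.53 FPKM, C1qb at 0.08, 0.92 and 0.96, and C1qc at 0.10, 0.49 and 0.10 FPKM. Summed over the chains this is 0.18, 1.69 and 1.59 FPKM, so libraries 2 and 3 held 9.39 and 8.83 times the level of library 1. C1qb exceeded C1qa in 3 of 3 libraries, while C1qc followed neither of them in library 3. By limma, 0 of the 3 lay above 1 FPKM with adjustment and 0 by the unadjusted p at the same threshold. Levels this low may rest on few reads, whose number the FPKM values do not give.

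Of the transcription factors, Spi1 had 1.71, 2.43 and 1.74 FPKM and lay above 1 FPKM (limma, Benjamini-Hochberg adjusted p = 1.70e-04). Library 3 exceeded library 1 by only 1.02 times for Spi1. Irf8, its partner in microglia, had 0.14, 0.20 and 0.18 FPKM, and Runx1, a factor of blood development that sensory neurons also use, 0.08, 0.15 and 0.19 FPKM. Spi1 exceeded Irf8 by 9.67 to 12.2 times. The median difference of library 1 from the other libraries was -0.27 for these factors, the smallest of the role groups with 3 or more genes above 0.

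Lysosomal and antigen-presenting genes differed more, and 6 of 6 were at least 1.5-fold lower in library 1. Lyz2 (ENSRNOG00000005825), the lysozyme of macrophages, had 6.57, 15.56 and 10.12 FPKM. A second entry with this symbol was listed at 0, 0 and 0.06 FPKM, and lysozyme copies could share reads. Gpnmb, a glycoprotein of phagocytic macrophages, had 1.05, 2.93 and 2.44 FPKM and lay above 1 FPKM (limma, Benjamini-Hochberg adjusted p = 0.0231), but not without library 2 (limma, adjusted p = 0.134). Ctss, the protease cathepsin S, had 0.46, 1.42 and 1.09 FPKM, 3.09 and 2.37 times the level of library 1 in libraries 2 and 3. Cd68, a lysosomal sialomucin, had 0.87, 1.30 and 1.61 FPKM, with library 3 highest. The galectin Lgals3 had 0.41, 0.89 and 0.76 FPKM, and Cd74, the invariant chain of MHC class II, 0.03, 0.18 and 0.10 FPKM.

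The NADPH oxidase makes superoxide in phagocytes. Its cytosolic subunit Ncf1 (p47phox) had 1.60, 4.09 and 3.97 FPKM and lay above 1 FPKM (limma, Benjamini-Hochberg adjusted p = 0.00784), and Ncf4 (p40phox) had 0.45, 1.15 and 0.94 FPKM. Ncf1 exceeded Ncf4 by 3.56, 3.56 and 4.22 times, so the ratio varied little while both genes were lowest in library 1. The catalytic subunit Cybb had 0.13, 0.34 and 0.18 FPKM. Cyba, its membrane partner, which many cells make, had 2.54, 5.13 and 4.12 FPKM. These 4 subunits were all lowest in library 1 and highest in library 2.

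Pattern recognition genes sense microbial products. Cd14, the co-receptor for lipopolysaccharide, had 0.57, 1.21 and 1.22 FPKM. Tlr2 had 0.42, 1.20 and 1.03 FPKM and Ly86 (MD-1), a partner of the receptor Cd180, 0.34, 1.32 and 1.28 FPKM. Ly86 was 3.88 and 3.76 times higher in libraries 2 and 3 than in library 1. Tlr4, the receptor that works with Cd14, was listed at 0.04, 0.06 and 0.01 FPKM, with library 3 lowest, and lay below Tlr2 in 3 of 3 libraries. By limma, 0 of the 4 lay above 1 FPKM with adjustment and 0 by the unadjusted p at the same threshold.

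The last group marks tissue and border macrophages. Mrc1 (CD206), the mannose receptor, had 0.11, 0.24 and 0.20 FPKM, and the haemoglobin scavenger receptor Cd163 was listed at 0 in each library. Pf4, a chemokine of platelets that embryonic macrophages also make, had 0.88, 0.28 and 0.31 FPKM. Pf4 was the 1 gene of the 41 that was highest in library 1, against 20.3% of all entries, and its level there was 1.31 higher than in the other libraries on the log2(FPKM + 0.1) scale. In the same library, the erythroid list was also at its highest, with a summed level of 302, 179 and 54.1 FPKM in libraries 1, 2 and 3. Of the 6 other platelet genes, 4 were above 0 in any library, 2 of these 4 were highest in library 1, and their median difference was 0.18. Itgb3 had 0.32, 0.26 and 0.23 FPKM and Gp1bb 32.19, 30.05 and 30.85, both highest in library 1, while Itga2b had 0.46, 0.20 and 0.58 FPKM. For Gp1bb the difference of library 1 was only 0.08, and its reads could be shared with the overlapping gene Septin5. Gp9 was listed at 0, 0.09 and 0 FPKM, and Ppbp and Treml1 at 0 in each library. The part of blood in the Pf4 value was not tested.

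Further lists of myeloid genes show whether the pattern was limited to the 42. Of 64 genes on 8 further lists, 16 lay above 1 FPKM in limma's test, against 63.7% of all entries tested. Of the 61 above 0, 40 were lowest in library 1, against 36.9% of all entries above 0. The list of integrins and Fc receptors, which also holds other genes such as Sirpa, was lowest in library 1 in 9 of 9 cases. Its highest genes were Sirpa (6.29, 7.49 and 6.85 FPKM), Itgb2 (1.36, 1.98 and 1.54) and Fcgr3a (0.85, 1.98 and 1.21). For Sirpa the difference of library 1 was only -0.18. Cd84 (0, 0.07 and 0.08 FPKM) was the lowest of the list. Other complement genes were lowest in library 1 in 7 of 7 cases, among them C3 (0.75, 2.42 and 1.54 FPKM), C3ar1 (0.77, 1.30 and 1.27), Itgb2 and, lowest, C5ar1 (0.03, 0.10 and 0.13). Leukocyte signalling genes were so in 10 of 14 cases, among them Rac2 (5.33, 9.33 and 8.82 FPKM) and Ptpn6 (1.48, 2.35 and 1.79). Btk (0.29, 0.19 and 0.17 FPKM) and Dock2 (0.16, 0.22 and 0.27) had the lowest means of that list. The median difference of library 1 over the 61 genes was -0.36, smaller than the -0.61 of the 41.

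The lists did not all follow. Of 8 homeostatic microglia genes above 0, 2 were lowest in library 1, against 36.9% of all entries above 0. Tmem119, at 0.1, 0.23 and 0.1 FPKM, tied for lowest and is not counted. The median difference of the 8 genes was 0 to 2 decimals. Sall1 (9.36 ± 0.833 FPKM) and Olfml3 (5.35 ± 0.451) lay above 1 FPKM, and both are known from other cells as well. Tmem119, P2ry13, Gpr34, Selplg and Slc2a5 had at most 0.23 FPKM in any library, and Siglech was listed at 0. Border macrophage genes had a median of -0.27, among them Maf (18.8 ± 2.52 FPKM) and Folr2 (0.88, 0.90 and 1.95 FPKM), while Timd4 was listed at 0 in each library. MHC class II genes were listed at or near 0, from RT1-Db1 at 0.13, 0 and 0 FPKM to RT1-Bb at 0 in each library.

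**Figure D4:**
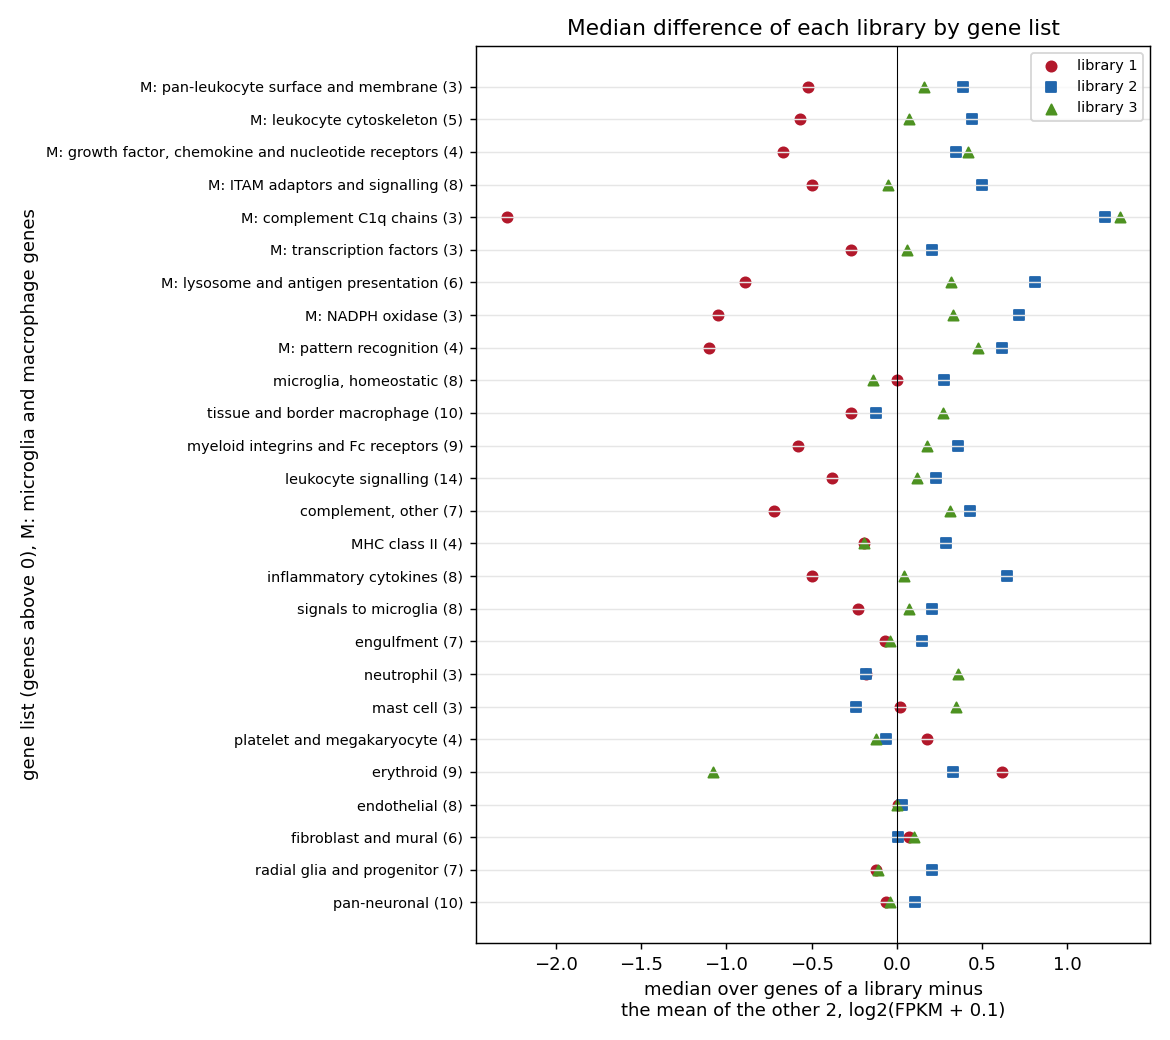
Median over genes of a library minus the mean of the other 2 libraries in log2(FPKM + 0.1), for role groups of the 42 genes (M) and for other lists with at least 3 genes above 0, with libraries 1 (circles), 2 (squares) and 3 (triangles). Library 1 is at -2.29 for C1q, at -1.10 for pattern recognition and at -1.05 for the NADPH oxidase, while it is at -0.06 for the pan-neuronal list and at 0.62 for the erythroid list.

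Cytokines that macrophages release were also present. Ccl3 had 6.68, 10.59 and 8.54 FPKM, Il1b 1.52, 3.35 and 2.39, and Il18 1.65, 2.31 and 2.77 FPKM. These 3 of 8 lay above 1 FPKM in limma's test, against 63.7% of all entries tested. Il6, at 0.08, 0.17 and 0.08 FPKM, was the lowest. In 5 of the 8 library 1 was lowest, against 36.9% of all entries above 0, and the median difference was -0.50.

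Signals by which other cells keep or restrain microglia did not share the size of the difference. Of the 9 genes, 8 lay above 1 FPKM, against 63.7% of all entries tested. Cd200, a surface protein of neurons that restrains microglia, had 33.96, 41.35 and 35.83 FPKM, Cd47, which blocks engulfment, 10.60, 12.12 and 11.94, and Tgfb2 3.90, 3.69 and 5.09 FPKM. Csf1, a ligand of Csf1r, had 2.64, 2.70 and 2.73 FPKM, nearly the same in each library, while Il34, the other ligand, was listed at 0. Cx3cl1, the ligand of Cx3cr1, had 1.92, 2.62 and 2.66 FPKM, 7.49 to 17.7 times the level of its receptor. Of the 8 genes above 0, 7 were lowest in library 1, against 36.9% of all entries. By size, 0 of the 8 were 1.5-fold lower there, against 5.29% of all entries, and their median difference was -0.23.

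Markers of other blood cells were mostly listed at 0. Of 32 genes on 5 lists (neutrophils, mast cells, platelets, T and NK cells, and B cells), 18 were listed at 0 in every library, among them S100a8, S100a9 and Mpo of neutrophils, Cpa3 of mast cells and Cd3e of T cells. The 3 of 32 that lay above 1 FPKM, against 63.7% of all entries tested, were Kit, Gp1bb and Pax5. Kit (15.72, 14.69 and 14.44 FPKM) and Pax5 (3.93, 3.30 and 4.84) are also known from the developing nervous system, and Gp1bb overlaps the neighbouring gene Septin5 in RefSeq, so their reads could be shared. Of the 14 genes above 0 in at least 1 library, 1 was lowest in library 1, against 36.9% of all entries above 0. Ties for the lowest value are not counted, and several of the 14 tied, such as Ngp (0.04, 0.04 and 0.08 FPKM) and Cd79b (0.23, 0.39 and 0.23). Most of the 14 had means under 0.5 FPKM, so this count cannot be set against that of the myeloid genes. Endothelial genes had a median difference of 0.01 in library 1 and fibroblast and mural genes 0.07. The median level of the endothelial genes was 0.0583 FPKM, under the 0.1 added before log2, which compresses differences. Their median therefore cannot show whether they were even between libraries.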

How the data were processed

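Polyadenylated RNA of 3 libraries was made into stranded libraries and read as pairs of 50 bp, per the labels. The submitters' processing notes list FastQC, Trimmomatic 0.22, STAR and the build rn6. How FPKM was computed, and with which annotation and strand setting, is not given in the sources used here. FPKM per gene and library were deposited by the authors and were used unscaled. They hold no counts, so counting intervals were not computed. Entries at 0 in 1 library and at least 0.2 FPKM in the other 2 were used to compare low values between pairs of libraries. Only ratios near 1 were kept, for 11 of 33, 23 of 37 and 15 of 36 entries. Their medians were 1.04, 0.974 and 0.912. These medians are near 1 by construction, so they do not show whether depth was equal.

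Values were analysed as log2(FPKM + 0.1), a scale that understates differences of low genes. The 17611 entries above 0 in any library entered 1 limma fit (version 3.58.1, statmod 1.5.0, R 4.3.3). Each was compared with 1 FPKM by a one-sided test using a robust, trended prior, and p-values were adjusted by Benjamini-Hochberg with a threshold of 0.05. The test was checked on simulated data. Libraries were compared by description, each being 1 sample.

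The members and lists were chosen with earlier results of these data known. Every member is named, and of other lists the 3 highest and the lowest gene, while some lists are given as counts. Some list genes are not reported here, and the counts of their lists include them. The lists of long transcripts and ribosomal proteins, the motif, further genes listed at 0 and the genes of the closing section were chosen after values were seen. Of 160 genes on 20 other lists, 155 matched. For symbols with several entries, the highest was taken. Alternatives were other pseudocounts, filters, levels, priors, scalings and each library left out. Figures were drawn with matplotlib 3.10.9.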

Additional observations from a re-analysis of the deposited data

How the results depend on the processing

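The count of 14 myeloid genes above 1 FPKM was 22 at a level of 0.5 FPKM and 8 at 2 FPKM. It ranged from 11 to 15 with 1 library left out: without library 2, Csf1r, Lyn and Gpnmb were lost, and without library 1, Cd68 was gained. Lyn was also lost with a plain prior. Other pseudocounts, filters and scalings left it at 14. The count of genes lowest in library 1 was 32 to 34 under both scalings, 34 without library 2 and 39 without library 3 (lower of the libraries left). Median differences kept their sign under both scalings and pseudocounts and from a mean of 0.5 FPKM upwards. That of library 1 ranged from -0.88 to -0.37 by pseudocount, and was -0.80 to -0.56 with 1 other library left out. That of library 3, 0.20, was -0.23 without library 1 and 0.56 without library 2, and that of library 2 ranged from 0.23 to 0.80. Without the 4 genes with the highest means, chosen after the data were seen, summed levels were 28.3, 53.7 and 44.3 FPKM in libraries 1, 2 and 3. Libraries 2 and 3 were then 1.90 and 1.57 times library 1. For all 42 genes these folds were 1.77 and 1.57 with libraries scaled to a common upper quartile. Scaled to a common sum they were 1.8 and 1.39, and library 2 exceeded library 3 by 1.3 times. The log2 ratio of C1qa to C1qc, 0.01, was -0.02 with libraries scaled to a common sum. No paired analysis was possible because all libraries form 1 group. Depth limits the genes under about 0.1 FPKM most, and its size is unknown.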

Other observations

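Genes outside the lists were ranked by the same difference. Among 10613 named and described entries with a mean of at least 1 FPKM, 17 of which are myeloid genes followed here, the 40 with the lowest level in library 1 relative to the other libraries held 6 of the 17: Ncf1, Gpnmb, Fcer1g, Cd14, Lyz2 and Csf1r. C3 and Il1b of the further myeloid lists were among them as well. The other 32 included several genes known from macrophages. Apoe, a lipid carrier made by macrophages and by glia, had 3.20, 13.88 and 11.37 FPKM in libraries 1, 2 and 3. Irg1, the enzyme that makes itaconate in activated macrophages, had 1.03, 3.14 and 2.90 FPKM. Tmem176b had 0.87, 3.01 and 2.56, Ifi30, a lysosomal thiol reductase, 1.49, 3.34 and 2.92, Bcl2a1, a survival factor of leukocytes, 1.28, 3.04 and 2.33, and Lst1 1.28, 2.24 and 2.73 FPKM. The same 40 also held genes of other kinds, such as the neuroendocrine gene Resp18 (5.55, 10.50 and 12.44 FPKM) and the synaptic gene Rims2 (0.98, 2.25 and 2.25).

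At the other end, the 20 entries with the highest level in library 1 relative to the mean of the other libraries held 0 myeloid genes followed here and 3 of the erythroid list, Hbe1 (206.8, 127.2 and 28.06 FPKM), Hba1 (56.90, 30.23 and 12.44) and Hbz (35.32, 19.06 and 12.22). Some of the 20 were higher still in library 2, such as Rnf11l, listed at 4.51, 6.35 and 0 FPKM. Another of these was Ly96, outside the lists but also known from macrophages, listed at 1.04, 2.64 and 0 FPKM. Myeloid and red cell genes thus ranked the libraries differently: library 1 held the least myeloid and the most globin RNA, and library 3 the least globin RNA. Edil3, which is no blood gene, was also far higher in library 1 (124.5 FPKM) than in libraries 2 (36.58) and 3 (33.97).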
